A study of Rattus norvegicus with 12 samples.

Results

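The Hox genes of anterior and trunk identity described here were Hoxa2, Hoxa3, Hoxa4, Hoxa5 and Hoxa7 of the HoxA cluster and Hoxb2, Hoxb3, Hoxb7, Hoxb8 and Hoxb9 of the HoxB cluster, 10 genes in all. Each was followed through the probe set that the array's annotation assigned to its symbol alone, and where there had been several the brightest over the 12 arrays would have been taken. No probe set was annotated to Hoxa3, which was not analysed here, and each of the other 9 genes had exactly 1 among the 26468 probe sets of the table. They were measured in endothelial cells (ECs) of the ductus arteriosus (DA), the fetal shunt between the pulmonary artery and the aorta, and of the aorta, in Wistar rats. The N group held neonates obtained 30 minutes after the first breath and the F group held fetuses on day 21 of gestation that had not breathed, and both were delivered by cesarean section. The 4 groups, DA N, aorta N, DA F and aorta F, had 3 arrays each. Sorting by FACS had kept cells that carried CD31 and lacked CD45, and the RNA on an array was pooled over many litters, so a replicate is a pool and a p-value measures the spread between pools. Litters were counted per stage and not per vessel, so pools of the DA and of the aorta may have litters in common.

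Hox genes encode homeodomain transcription factors. They lie in clusters, and genes with low numbers are generally used in the hindbrain and pharyngeal region while genes with higher numbers are used progressively further towards the tail. Genes with the same number in different clusters are paralogs, copies of one ancestral gene. The DA develops from the left sixth pharyngeal arch artery, and the descending aorta from the paired dorsal aortae. In the rat genome the HoxA genes lay on chromosome 4 in the order of their numbers, with Hoxa6 between Hoxa5 and Hoxa7, and the HoxB genes lay on chromosome 10 with Hoxb9 at one end of the group described here and Hoxb2 at the other.

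The promoters of 3 HoxA genes are shown because these genes were on opposite sides of the vessel comparison, Hoxa2 and Hoxa4 higher and Hoxa7 lower in the DA. Each sequence is the 250 bases before the gene's start in RefSeq, build GRCr8, read on the minus strand from 5′ to 3′, and the positions are chr4:82595693-82595942 for Hoxa2, chr4:82622303-82622552 for Hoxa4 and chr4:82648242-82648491 for Hoxa7. Capitals mark matches, on either strand, to any of 5 motifs, which were TGATTNAT for a Pbx-Hox dimer, TGACAG for Meis proteins, TAATNA as the core bound by many homeodomains, AGGTCA as the half-site of retinoic acid receptors and TTTATG for Cdx and posterior Hox proteins.
Hoxa2: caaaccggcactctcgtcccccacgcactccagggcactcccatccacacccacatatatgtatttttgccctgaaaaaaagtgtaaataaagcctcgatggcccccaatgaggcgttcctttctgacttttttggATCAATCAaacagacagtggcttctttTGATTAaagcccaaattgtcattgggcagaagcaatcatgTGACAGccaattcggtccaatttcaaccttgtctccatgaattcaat
Hoxa4: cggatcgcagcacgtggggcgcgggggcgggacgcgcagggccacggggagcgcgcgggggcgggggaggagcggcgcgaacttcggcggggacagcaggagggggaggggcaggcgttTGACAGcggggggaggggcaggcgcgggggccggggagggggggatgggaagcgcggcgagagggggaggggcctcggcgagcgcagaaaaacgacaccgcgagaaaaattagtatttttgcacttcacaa
Hoxa7: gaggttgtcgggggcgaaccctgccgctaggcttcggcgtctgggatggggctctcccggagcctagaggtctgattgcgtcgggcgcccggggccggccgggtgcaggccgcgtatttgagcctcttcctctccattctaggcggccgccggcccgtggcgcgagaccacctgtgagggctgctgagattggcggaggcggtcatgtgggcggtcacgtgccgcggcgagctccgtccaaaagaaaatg
The Hoxa2 window held 1 Pbx-Hox match, 1 homeodomain core and 1 Meis match, which did not overlap one another. The Hoxa4 window held 1 Meis match and the Hoxa7 window held none of the 5 motifs. Over the 33469 RefSeq promoters of this length, 2.82% held the Pbx-Hox motif, 25.4% the homeodomain core, 15.8% the Meis motif, 14.1% the retinoic acid receptor half-site and 11.4% the Cdx motif. The Hoxa2 window had 6 CG dinucleotides, near the median of 5 over all promoters, whereas those of Hoxa4 and Hoxa7 had 32 and 28. Of the 10 genes, 4 had a promoter in the table used. A match of letters shows no binding, and its absence covers this window alone.

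Values are log2 signals, on which a difference of 1 is a 2-fold difference in brightness. Only probe sets at or above the mean level of the lys spike, a bacterial RNA that had been added to each sample at low amount, entered the test, 18690 in all. All 9 genes passed, Hoxb9 only through its level in the aorta. limma was fitted to the 4 group means, and a gene was called at an adjusted p under 0.05 over all probe sets tested. Signals of different probe sets depend on their probes, so levels are compared within a gene and not between genes. The lys spike averaged 4.44 and ranged from 3.41 to 6.17 over the arrays, and the array medians lay between 5.63 and 5.76. The sort was carried by its markers, since Pecam1, which encodes CD31, read 11.9 to 12.3 on every array, and Ptprc, which encodes CD45, read 2.82 to 4.10 and did not reach the spike's mean on any.

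Between the vessels these 9 Hox genes differed in direction, in part by number and by cluster. Hoxa2 and Hoxa4 were higher in DA ECs than in aorta ECs, and Hoxa7, Hoxb7, Hoxb8 and Hoxb9 were lower, in both stages, while Hoxb3 was lower in the N group and over both stages. Hoxa5 and Hoxb2 were not called in any comparison of this fit, which did not pair the arrays. When the replicate numbers entered limma as a block, Hoxa5 was called higher over both stages (adjusted p = 0.0279). In the N group 2 of the 9 genes were higher, against 1.26% of all probe sets, and 5 were lower, against 1.87%. In the F group 2 were higher, against 1.49% of all probe sets, and 4 were lower, against 2.28%. Over both stages 2 were higher, against 3.19%, and 5 were lower, against 4.93%. Hoxb9 entered the test through the aorta alone, where it was high, and without it 2 of 8 genes were higher in each of these comparisons and 4 in the N group, 3 in the F group and 4 over both stages were lower. The median log2 fold change of the 9 genes over both stages was -0.85, also with Hoxb9 at the spike's mean in the DA, and that of all probe sets tested was -0.00041. The arrays of the DA and the aorta did not overlap for 7 of the 9 genes, in the N group (15.3% of all probe sets), in the F group (18.6%) and over both stages (6.98%). Without Hoxb9 this was so for 6 of 8 genes in each of the 3 comparisons.

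**Figure D1:**
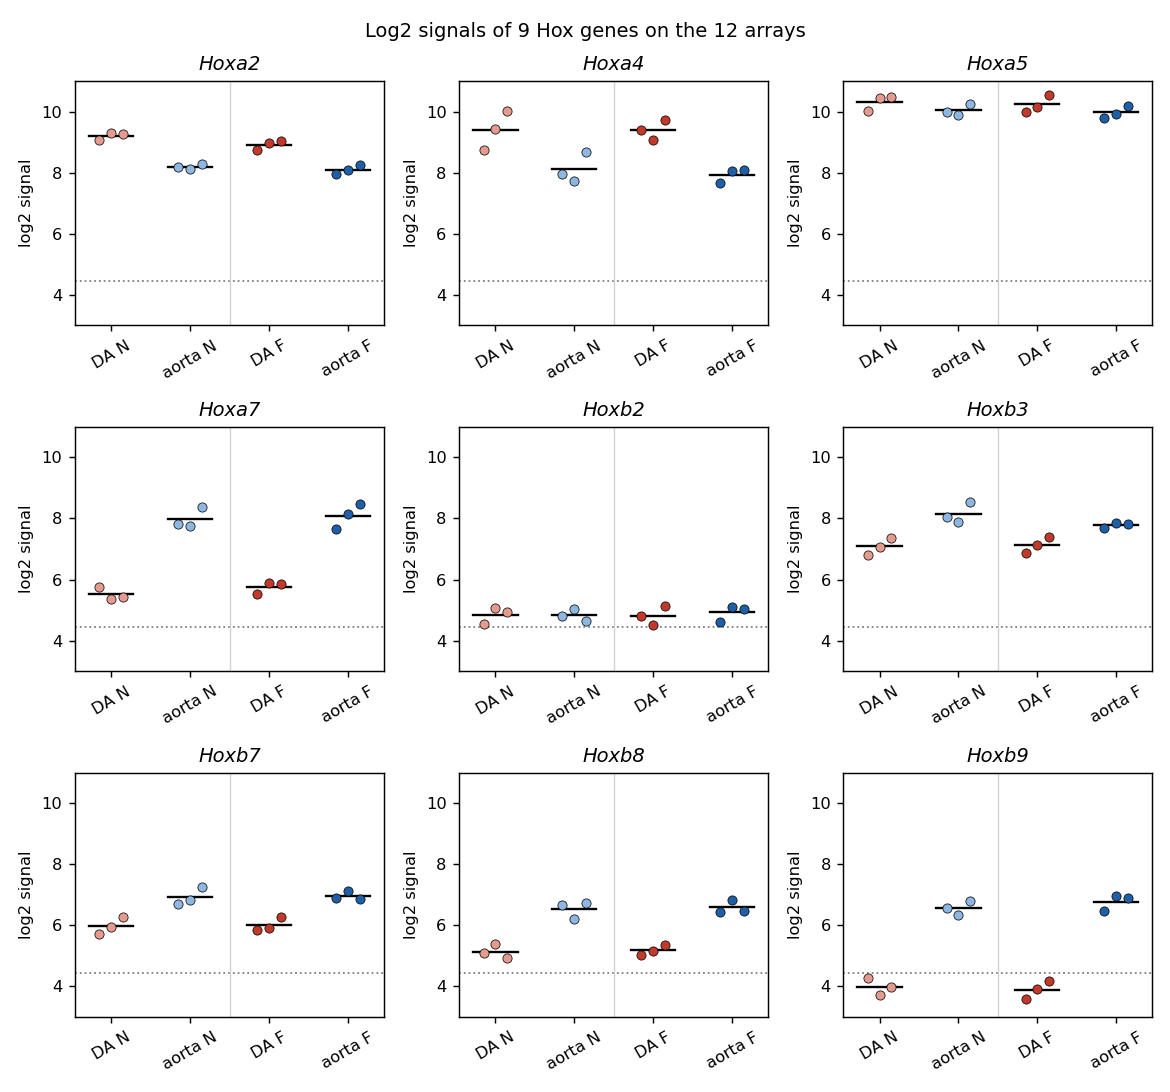
Log2 signal (vertical axis) of the 9 Hox genes on each of the 12 arrays, with the 4 groups along the horizontal axis. Points are arrays in the order of replicate 1 to 3, bars are means of 3 arrays, and the dotted line is the mean of the lys spike at 4.44. The DA arrays lie above the aorta arrays for Hoxa2 and Hoxa4 and below them for Hoxa7, Hoxb3, Hoxb7, Hoxb8 and Hoxb9, and all 6 DA arrays of Hoxb9 lie under the line.

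Hoxa2, which sets the identity of the second pharyngeal arch in the mouse, was higher in the DA on every array. It read 9.05, 9.29 and 9.27 in DA N, against 8.20, 8.13 and 8.27 in aorta N. In DA F it read 8.74, 8.97 and 9.03, against 7.96, 8.08 and 8.25 in aorta F. The lowest DA array stood above the highest aorta array, and the order of the group means was DA N, DA F, aorta N and aorta F. The log2 fold change of the DA over the aorta in the N group was 1.004 (adjusted p = 0.000619, standard error 0.13), and in the F group it was 0.81 (adjusted p = 0.0026, standard error 0.13). Over both stages it was 0.91 (standard error 0.09, adjusted p = 3.26e-05), with a 95% confidence interval of 0.71 to 1.10.

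Hoxa4, a gene of the neck region of the axial skeleton in the mouse, had the highest log2 fold change of the 9 genes over both stages. It read 8.75, 9.43 and 10.01 in DA N, against 7.94, 7.74 and 8.68 in aorta N, the widest spread within a group among these genes. In DA F it read 9.40, 9.07 and 9.73, against 7.66, 8.05 and 8.09 in aorta F. All DA arrays were above all aorta arrays, with the lowest DA array, replicate 1 of DA N, at 8.75 and the highest aorta array, replicate 3 of aorta N, at 8.68. The 2 DA groups had nearly equal means, 9.40 ± 0.63 in DA N and 9.40 ± 0.33 in DA F (SD, n = 3 each). Over both stages the log2 fold change was 1.37 (standard error 0.22, adjusted p = 0.00146). For N alone it was 1.28 (standard error 0.31, adjusted p = 0.0463), and the call ended with no filter (adjusted p = 0.0567), with quantile normalization (0.0717), with only the N arrays in the fit (0.172), by the adjusted p of the methods' t-test (0.505) and when 1 array was left out, for 9 of the 12 arrays: replicate 1 (adjusted p = 0.164) or 2 (0.198) of aorta N, 2 (0.171) or 3 (0.166) of DA N, 2 (0.0733) or 3 (0.0656) of aorta F, and 1 (0.0712), 2 (0.0598) or 3 (0.0544) of DA F. In the F group it was 1.47 (standard error 0.31, adjusted p = 0.0172), and the call ended without replicate 1 (adjusted p = 0.0722) or 2 (0.0533) of aorta F or without replicate 1 (0.0603) or 3 (0.0883) of DA F.

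Hoxa5, which the lung and airway need in the mouse and which is also known from quiescent endothelium, stood well above the lys spike in both vessels. It read 10.03, 10.45 and 10.48 in DA N, against 9.99, 9.90 and 10.24 in aorta N. In DA F it read 9.99, 10.16 and 10.54, against 9.79, 9.93 and 10.19 in aorta F. The groups overlapped in both stages. The log2 fold change over both stages was 0.27 (standard error 0.13, adjusted p = 0.296), with a 95% confidence interval of -0.0087 to 0.54. When the replicate numbers entered limma as a block the adjusted p was 0.0279 (17.8% of all probe sets called), and the DA array was the higher of each of the 6 pairs of the same stage and number, by 0.03 to 0.55.

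Hoxa7, the highest-numbered of the HoxA genes described here and one used in the trunk, was on the other side. It read 5.77, 5.36 and 5.43 in DA N, against 7.83, 7.75 and 8.36 in aorta N. In DA F it read 5.54, 5.90 and 5.87, against 7.67, 8.15 and 8.47 in aorta F. The highest DA array read 5.90 and the lowest aorta array 7.67, so that no array of one vessel came near the other vessel. The log2 fold change over both stages was -2.39 (standard error 0.16, adjusted p = 1.02e-06), a level 5.25-fold lower in the DA as fitted. On replicate 1 the DA signals were under the lys spike of the same array, which read 5.78 in DA N and 6.17 in DA F. It was -2.46 in the N group (adjusted p = 4.78e-05) and -2.33 in the F group (adjusted p = 6.1e-05).

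In the HoxB cluster Hoxb2, which acts in the hindbrain in the mouse, was dim and did not separate the vessels. It read 4.55, 5.07 and 4.94 in DA N, against 4.80, 5.02 and 4.65 in aorta N. In DA F it read 4.81, 4.50 and 5.12, against 4.61, 5.12 and 5.05 in aorta F. All arrays lay between 4.50 and 5.12, just above the mean of the lys spike. On replicate 1 of DA N, aorta N and DA F it read under the spike's signal on the same array. A difference between the vessels could therefore go unseen. The log2 fold change over both stages was -0.04 (standard error 0.14, adjusted p = 0.946), with a 95% confidence interval of -0.35 to 0.26, and its sign differed between the N group (0.03) and the F group (-0.11).

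Hoxb3, known from pharyngeal arch and hindbrain patterning and from capillary formation by ECs, was lower in the DA. It read 6.82, 7.07 and 7.37 in DA N, against 8.03, 7.88 and 8.53 in aorta N. In DA F it read 6.86, 7.13 and 7.38, against 7.68, 7.84 and 7.80 in aorta F. The vessels did not overlap in either stage. Over both stages the log2 fold change was -0.85 (standard error 0.14, adjusted p = 0.00145), and for N alone it was -1.06 (standard error 0.19, adjusted p = 0.00869). For F alone it was -0.65 (standard error 0.19) and was not called (adjusted p = 0.106), whereas with the replicate block it was (adjusted p = 0.00558). With that block the share of all probe sets called in the F group was 10.4%. The difference between the N and the F group in this vessel contrast was -0.41 (standard error 0.27, adjusted p = 1), so the stages were not shown to differ.

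Hoxb7, Hoxb8 and Hoxb9 are neighbours in the cluster and are used in the trunk, and all 3 were lower in the DA. Hoxb7 read 5.71, 5.95 and 6.26 in DA N, against 6.71, 6.82 and 7.24 in aorta N. In DA F it read 5.85, 5.93 and 6.26, against 6.89, 7.13 and 6.86 in aorta F. Each DA array was below each aorta array, and the log2 fold change over both stages was -0.95 (standard error 0.13, adjusted p = 0.000398). Within a stage the call of Hoxb7 depended on 1 array, since in the N group (adjusted p = 0.0113) it ended without replicate 2 of DA N (adjusted p = 0.057) and in the F group (adjusted p = 0.00924) without replicate 2 of aorta F (adjusted p = 0.054).

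Hoxb8, also known from blood cell progenitors, read 5.11, 5.40 and 4.92 in DA N, against 6.68, 6.21 and 6.73 in aorta N. In DA F it read 5.04, 5.16 and 5.34, against 6.43, 6.85 and 6.49 in aorta F. The vessels did not overlap, and the difference was of the same size in both stages. The log2 fold change was -1.40 in the N group (adjusted p = 0.000677), -1.40 in the F group (adjusted p = 0.000572) and -1.40 over both (standard error 0.13, adjusted p = 1.49e-05).

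Hoxb9, which helps pattern the ribs in the mouse, was lower in the DA on every array. It read 4.27, 3.72 and 3.97 in DA N, against 6.56, 6.34 and 6.78 in aorta N. In DA F it read 3.57, 3.91 and 4.18, against 6.46, 6.96 and 6.89 in aorta F. All 6 DA arrays lay under the mean of the lys spike, and 4 of them under the spike's signal on the same array, so the fold is given as a bound. With each DA array raised to the spike's mean, Hoxb9 was at least 4.35-fold lower in DA N than in aorta N and at least 5.03-fold lower in DA F than in aorta F. These bounds hold only for a floor at that mean. On replicate 1 the spike itself read 5.78 in DA N and 6.17 in DA F, and a floor at each array's own spike was not computed. Hoxa7, Hoxb7 and Hoxb8 also read under the spike on those arrays, though above its mean, so their folds are as fitted. On the log2 scale these bounds are -2.12 in the N group and -2.33 in the F group, so that Hoxb9 and Hoxa7 cannot be ranked against each other. The adjusted p of the fitted difference was 1.84e-05 in the N group and 8.16e-06 in the F group, and over both stages the difference was -2.73 as fitted (standard error 0.14, adjusted p = 1.96e-07) and -2.23 with the DA at the spike's mean.

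Among these 9 genes the vessel difference changed along each cluster, and Hoxa2 differed from Hoxb2 and Hoxa7 from Hoxb7. In HoxA the log2 fold changes of the DA over the aorta, over both stages, were 0.91 for Hoxa2, 1.37 for Hoxa4, 0.27 for Hoxa5 and -2.39 for Hoxa7. Hoxa11, which is not among the 9 genes, had -0.11, at a mean signal of 4.49 over the 12 arrays, near the spike's mean. In HoxB they were -0.04 for Hoxb2, -0.85 for Hoxb3, -0.95 for Hoxb7, -1.40 for Hoxb8 and, as fitted from DA signals under the spike's mean, -2.73 for Hoxb9. Neighbours and paralogs among these 9 genes alone were compared in 9 pairs, chosen after their values were seen. With p adjusted over the 9 pairs, a two-sided exact permutation test compared their fold changes over the arrays within each stage. The smallest p that its 400 arrangements can give is 0.005. Because replicate numbers were taken to pair the arrays, an exact test that flips signs within the 6 pairs of DA and aorta arrays was added. The smallest p it can give is 0.0312. Of the paralogs, Hoxa2 exceeded Hoxb2 by 0.95 on the log2 scale (exact p = 0.005, adjusted 0.0075). Hoxb2 read only 4.50 to 5.12, just above the spike's mean, in both vessels. A vessel difference in Hoxb2 could go unseen there, and the pairs with Hoxb2 carry that limit. Hoxa7 and Hoxb7 were both lower in the DA, Hoxa7 by a further 1.44 (difference -1.44, exact p = 0.005, adjusted 0.0075). In HoxA the step between Hoxa2 and Hoxa4 was not significant (difference -0.46, exact p = 0.075, adjusted 0.0844), and Hoxa4 exceeded Hoxa5 by 1.10 and Hoxa5 exceeded Hoxa7 by 2.66 (exact p = 0.005, adjusted 0.0075 for each). In HoxB, Hoxb2 exceeded Hoxb3 by 0.81 (exact p = 0.005, adjusted 0.0075). Hoxb8 exceeded Hoxb9 by at least 0.83 with Hoxb9 at the spike's mean in the DA. That is given as a bound without a p, because Hoxb9 entered through the aorta alone, where it was high. The pair still counts among the 9 of the adjustment. Hoxb7 exceeded Hoxb8 by 0.45 (exact p = 0.015, adjusted 0.0193), in 5 of the 6 array pairs, and this call was lost with sign flips within the pairs (exact p = 0.0625, adjusted 0.0703). The difference between Hoxb3 and Hoxb7 was 0.10 (exact p = 0.275, adjusted 0.275). Hoxb4, which lies between them in the cluster and is a paralog of Hoxa4, was in none of the pairs. Its log2 fold change over both stages was -0.35 (limma adjusted p = 0.177), nearer 0 than that of Hoxb3 or Hoxb7, so the HoxB values did not fall at every step. The other called pairs were at the smallest p of the sign-flip test (adjusted 0.0469, a value that depends on how many pairs reach it). That test used the same arrays and the same chosen pairs, so it is no independent support. A probe set's response may differ from its gene's.

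**Figure D2:**
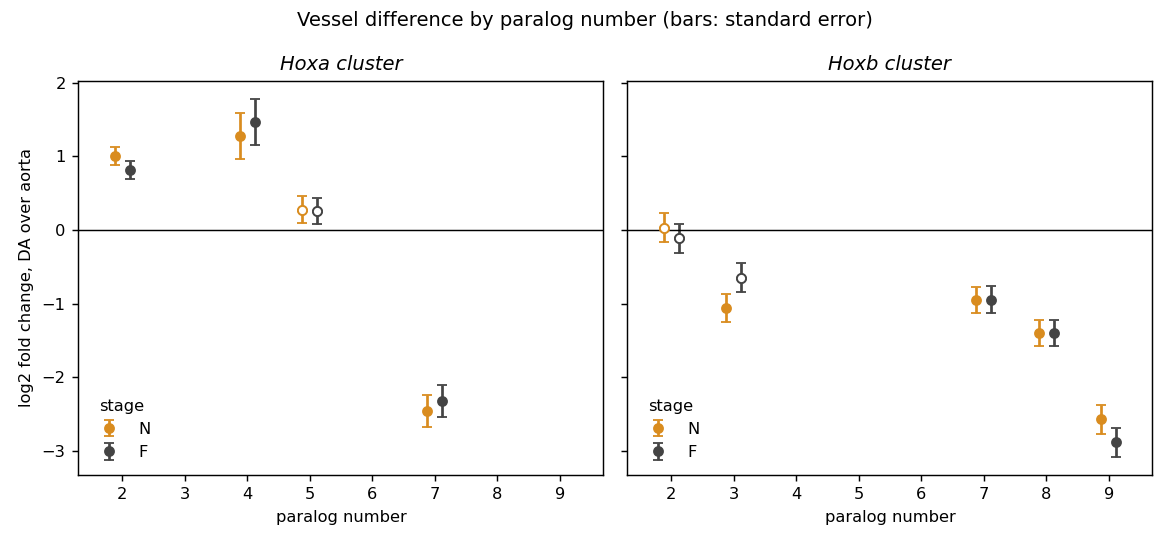
Log2 fold change of the DA over the aorta (vertical axis) against paralog number (horizontal axis) for the HoxA genes (left) and the HoxB genes (right), in the N and the F group. Points are limma estimates, bars are standard errors, and open points were not called. Low numbers of HoxA lie above 0 and Hoxa7 below it, while the HoxB points lie near 0 for Hoxb2 and below it for the others, with Hoxb9 plotted as fitted.

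Between N and F none of the 9 genes was called, in either vessel. In the DA the log2 fold changes of N over F ran from -0.25 for Hoxa7 to 0.29 for Hoxa2, and 0 of 9 genes were called (adjusted p = 1 for each), against 0.00535% of all probe sets. At an unadjusted p under 0.05 in limma there was 1 gene, Hoxa2 (log2 fold change 0.29, standard error 0.13, unadjusted p = 0.0404), against 2.01% of all probe sets. It was also the 1 gene whose DA arrays did not overlap between the stages, with 9.05 as the lowest of DA N and 9.03 as the highest of DA F, and such genes made up 5.03% of all probe sets. In the aorta the range was -0.21 for Hoxb9 to 0.37 for Hoxb3, 0 of 9 genes were called against 0% of all probe sets, and 0 had an unadjusted p under 0.05 against 1.38%. Hoxb3 was the 1 gene without overlap there, with 7.88 as the lowest of aorta N and 7.84 as the highest of aorta F (log2 fold change 0.37, standard error 0.19, unadjusted p = 0.0761), against 4.39% of all probe sets. The vessel contrast of N minus that of F ranged from -0.41 for Hoxb3 to 0.31 for Hoxb9. None of these 9 differences was called (0% of all probe sets) and none had an unadjusted p under 0.05 (0.931% of all probe sets). The standard errors of the 9 genes in these N over F comparisons were 0.13 to 0.31. A call over all probe sets needs a change of several standard errors, so changes well above these values could also go undetected with 3 arrays per group. With the replicate block, none of the 9 genes was called between N and F either.

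**Figure D3:**
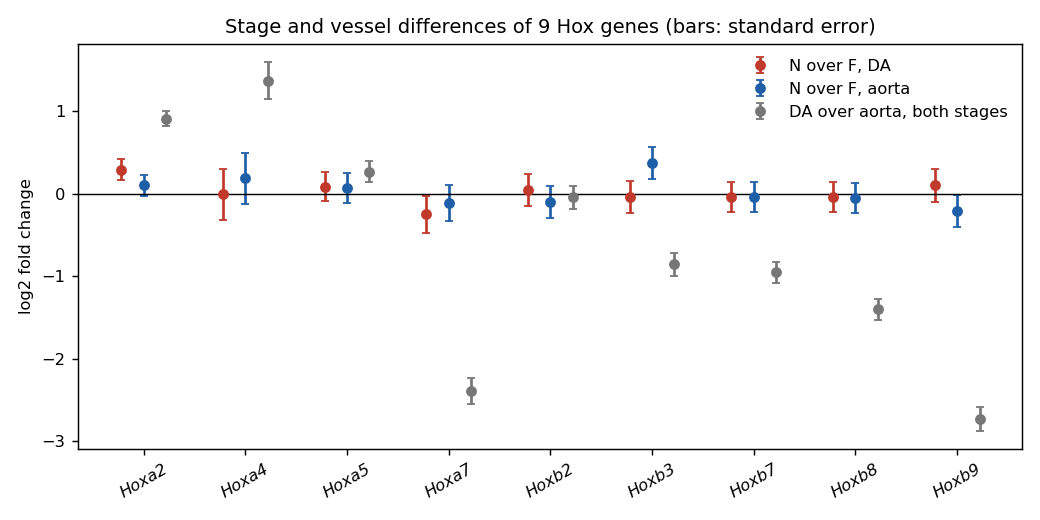
Log2 fold change (vertical axis) of N over F in the DA, N over F in the aorta, and the DA over the aorta over both stages, for each of the 9 Hox genes (horizontal axis). Points are limma estimates and bars standard errors. The N over F points stay between -0.25 and 0.37, while the vessel points reach from -2.73 for Hoxb9, as fitted, to 1.37.

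The likeness of profiles was measured, as a description, by the root mean square difference of 2 genes' 12 log2 values after each gene's own mean was subtracted. Among the 9 genes Hoxb3 and Hoxb7 were closest, at 0.175, followed by Hoxa7 and Hoxb9 at 0.251, and Hoxa4 and Hoxb9 were farthest apart, at 2.09. Outside the Hox genes described here 11890 probe sets with 1 gene symbol were compared, other Hox genes tested among them. Nearest to Hoxa4 were Mfap4, which encodes a microfibril-associated protein (0.238), Hand2, which encodes a transcription factor of the heart and pharyngeal arches (0.255), Macroh2a2, which encodes a histone variant (0.263), Antxr1, which encodes an anthrax toxin receptor (0.265), and Kif26b, which encodes a kinesin (0.271), with a median of 0.813 over all. Hand2 read 7.76 to 8.07 over the 6 DA arrays, against 6.36 to 7.01 over the 6 aorta arrays. Nearest to Hoxb9 were Anpep, which encodes the membrane peptidase aminopeptidase N (0.164), Il33, which encodes an alarmin cytokine (0.321), Dkk2, which encodes a secreted Wnt modulator (0.413), Dpep2, which encodes a dipeptidase (0.444), and Lrrc15, which encodes a leucine-rich repeat membrane protein (0.447), with a median of 1.39 over all. Anpep read 6.36 to 6.80 over the DA arrays, against 8.99 to 9.33 over the aorta arrays. These 12 points share the vessels, the stages and the replicate pools. All 6 DA values of Hoxb9 lay under the spike's mean, and its distances use them as measured.

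Of 29 other Hox genes listed, 13 had a probe set of their own, and 8 of them passed the filter. None of the 8 was called over both stages in the unblocked limma fit, and 2, Hoxb4 and Hoxd4, had an unadjusted p under 0.05, against 18.2% of all probe sets. The values were -0.43 for Hoxd4 (adjusted p = 0.149, standard error 0.16) and -0.35 for Hoxb4 (adjusted p = 0.177, standard error 0.14), both paralogs of Hoxa4, which was higher in the DA. Hoxd9, a paralog of Hoxb9, had -0.30 (standard error 0.16, adjusted p = 0.382). With the replicate block these 3 were called lower in the DA (adjusted p = 0.00788 for Hoxd4, 0.0284 for Hoxb4 and 0.0461 for Hoxd9), where 17.8% of all probe sets were called. The remaining 5, Hoxa11, Hoxc12, Hoxd1, Hoxd3 and Hoxd13, lay between -0.11 and 0.13. Over the 12 arrays Hoxa11 averaged 4.49, Hoxd3 4.55, Hoxc12 4.62 and Hoxd13 4.71, near the spike's mean of 4.44. Vessel differences in these genes could go unseen. Hoxd1 averaged 5.86. Hoxb13, Hoxc4, Hoxc5, Hoxc9 and Hoxd10 were under the filter.

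Hox proteins bind DNA together with Pbx and Meis proteins, homeodomain cofactors of the TALE class. Of 9 such genes listed, 7 were tested, 0 were higher (3.19% of all probe sets) and 1 was lower (4.93%) over both stages, with a median log2 fold change of -0.04. That gene was Meis1 (log2 fold change -0.36, standard error 0.09, adjusted p = 0.0279), and the call ended when any of 8 arrays was left out, replicates 2 and 3 of DA N, 1 and 2 of aorta N, 1 and 3 of DA F and 1 and 3 of aorta F, up to an adjusted p of 0.0805. Of 7 regulators listed that act upstream of Hox genes, 3 were tested (Cdx2, Gdf11 and Egr2) and 0 were called, with log2 fold changes of -0.17 to 0.21.

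Retinoic acid induces Hox genes in the embryo. Of 18 genes listed for its synthesis, breakdown and receptors, 14 were tested, 2 were higher (3.19% of all probe sets) and 6 lower (4.93%) in the DA over both stages, and the median log2 fold change was -0.25. Aldh1a1, a retinaldehyde dehydrogenase that makes retinoic acid, was higher (1.38, standard error 0.25, adjusted p = 0.00374), and Aldh1a3, another such enzyme, was lower (-0.73, standard error 0.10, adjusted p = 0.000653). Of the enzymes that break it down, Cyp26a1 was higher (0.44, standard error 0.11, adjusted p = 0.0223) and Cyp26b1 lower (-1.19, standard error 0.11, adjusted p = 2.7e-05). Rarg, a retinoic acid receptor, and Rdh10, a retinol dehydrogenase, were lower (-0.43, adjusted p = 0.00626, and -0.38, adjusted p = 0.0252). Crabp2, which encodes a retinoic acid binding protein, had -0.64 and was called with the replicate block alone (adjusted p = 2.66e-05, against 0.108 without it). The calls of Cyp26a1 and Rdh10 ended when 1 array was left out, up to an adjusted p of 0.0609 (replicates 1 and 2 of aorta N, 1 and 3 of DA F and 2 of aorta F) and of 0.0794 (2 and 3 of DA N, 1 and 2 of aorta N, 1 and 2 of DA F and 1 and 2 of aorta F).

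Polycomb proteins keep Hox genes silent and Trithorax proteins keep them active. Of 22 genes of both classes listed, 17 were tested, 0 were higher (3.19% of all probe sets) and 1 was lower (4.93%), with a median log2 fold change of -0.05. It was Kdm6b, a demethylase of the Polycomb mark (log2 fold change -0.44, standard error 0.12, adjusted p = 0.0343), and the call ended with no filter (0.0511), with quantile normalization (0.084) and without any 1 of 9 arrays, replicates 1 and 2 of DA N, 1 and 3 of aorta N, all of DA F and 2 and 3 of aorta F, up to an adjusted p of 0.0938. With the replicate block 3 of the 17 were called, Cbx2 higher (0.37, adjusted p = 0.0134) and Kdm6b and Bmi1 lower, near the 17.8% of all probe sets called with it.

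**Figure D4:**
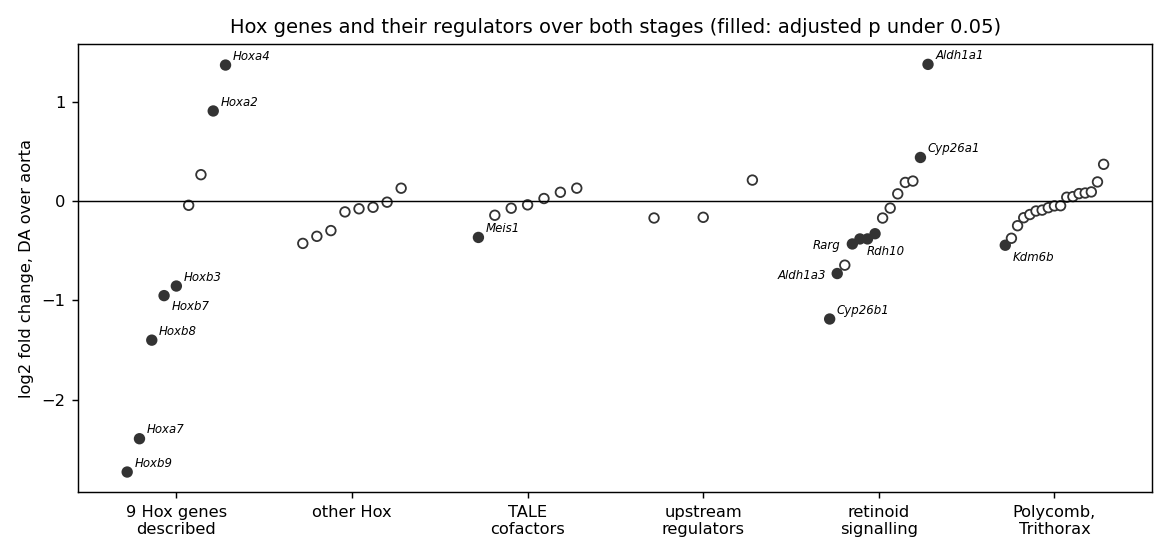
Log2 fold change of the DA over the aorta over both stages (vertical axis) for the 9 Hox genes and 5 lists of other Hox genes, cofactors and regulators (horizontal axis), genes sorted by value within a list. Each point is 1 gene and filled points were called. The 9 Hox genes span -2.73 (Hoxb9, as fitted) to 1.37, against -0.43 to 0.13 for the other Hox genes tested and -0.36 to 0.13 for the TALE cofactors. Several of the other Hox genes were near the lys spike's mean, where vessel differences could go unseen.

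Markers of other cell types also differed between the vessels. In these sorted bulk samples more cells of a type and more RNA per cell cannot be told apart. Over both stages 3.19% of all probe sets were higher and 4.93% lower. Of 10 smooth muscle markers 4 were higher in the DA (Acta2, Tagln, Actg2 and Des) and 2 lower (Mylk and Myocd), and their summed linear signal was 3464 to 4419 in DA N, against 2518 to 2788 in aorta N, and 3374 to 3537 in DA F, against 2356 to 2743 in aorta F. Myh11, a defining marker of mature smooth muscle, was not called (adjusted p = 0.0726) and read 6.16 to 6.58 in DA N, against 5.57 to 5.94 in aorta N, and 5.74 to 6.37 in DA F, against 5.68 to 6.02 in aorta F. Of 10 fibroblast markers tested 3 were higher and 1 lower, with summed signals, over 11 genes, of 8641 to 10092 in DA N, against 7908 to 9067 in aorta N, and 7567 to 9613 in DA F, against 7684 to 8708 in aorta F. The 14 endothelial markers had 0 higher and 2 lower, with summed signals of 26151 to 27711 in DA N, against 28719 to 29926 in aorta N, and 25817 to 27191 in DA F, against 27320 to 29767 in aorta F. Of the mesothelial and epicardial markers 1 of 5 tested was higher, of the cardiomyocyte markers 1 of 7 was lower, and 0 of 6 Schwann and neural crest, 0 of 2 leukocyte and 0 of 3 erythroid markers were called. Their part in the Hox differences was not tested.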

How the data were processed

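The arrays were Affymetrix Rat Gene ST arrays, 12 in all with 3 in each group. Deposited were log2 signals, which the authors had summarised per probe set and normalized by a method not given in the sources used here. No further normalization was applied. Gene symbols came from the platform annotation, updated through RefSeq (15307 probe sets with 1 symbol, 323 with several, 10838 with none). Probe sets under the mean of the lys spike (7778 of 26468) were left out.

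limma 3.58.1 in R 4.3.3 was fitted to all 12 arrays with 1 mean per group and no block, with Benjamini-Hochberg adjustment over 18690 probe sets. Precision was limited by the number of arrays. The Hox genes and lists were chosen with earlier results of these data known. Named were the 10 Hox genes, all other Hox genes measured and up to 6 called genes of each regulator list. Named too were the 5 probe sets nearest to the genes with the highest and the lowest vessel fold change as fitted. Genes called with the block alone, markers and the comparison of pairs with its sign-flip test and spike floor were chosen after their values were seen.

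Deviations from the group means correlated at 0.5393 to 0.82 between arrays of replicate number 1, 0.1025 to 0.3012 for number 2 and 0.3928 to 0.7352 for number 3, against -0.738 to 0.3678 between different numbers. The numbers were therefore taken to pair the arrays. Their meaning was not stated. The lys spike read 4.53 to 6.17 on the arrays of replicate 1 and 3.41 to 3.53 on those of replicate 3. Alternatives covered the test, the block, the filter, the normalization, the arrays fitted and each array left out. The procedure was tested on simulated data.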

Additional observations from a re-analysis of the deposited data

How the results depend on the processing

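Over both stages the calls of 7 of the 9 Hox genes held under every alternative that tested them. Over all Hox genes and alternatives in the 3 vessel comparisons, 480 values kept direction and side of the threshold, 34 lost the call, 3 gained it and 8 turned sign, all 8 for Hoxb2. Between N and F, where no Hox gene was called under any alternative, the sign of 7 of the 9 genes in the DA and 5 in the aorta turned under at least 1, and so did 6 of the 9 differences of the vessel contrast. Higher in the N group were 1 gene in place of 2 with no filter, with quantile normalization, with only the groups compared in the fit and by the methods' t-test at its unadjusted threshold, and lower in the N group were 3 in place of 5 with only the groups compared, where Hoxb3 (adjusted p = 0.0572) and Hoxb7 (0.0681) lost the call. After Benjamini-Hochberg adjustment the methods' t-test called 0 in either direction in both stages (at the unadjusted threshold 6 in N and 7 in F), where it called 20 and 24 probe sets in N and 29 and 38 in F (higher and lower). A filter asking on every array for at least that array's own lys signal kept 11525 probe sets and only 4 of the 9 genes, so that lower counts were 1 in N, 0 in F and 1 over both stages by construction. With 1 array left out, genes higher numbered 1 to 2 in N, 1 to 2 in F and 2 over both, and genes lower 4 to 5, 3 to 4 and 5, and none was called between N and F. Probe sets higher and lower ranged from 141 to 233 and from 177 to 350 in N, from 183 to 289 and from 280 to 477 in F, and from 433 to 558 and from 688 to 951 over both stages. With only the groups compared they were 140 and 178 in N, and by the unadjusted t-test 818 and 1034 in N and 866 and 1360 in F. The replicate block gave 558 and 800 in N, 737 and 1214 in F and 1441 and 1886 over both, and ended no call of a Hox gene. With 1 array left out Hoxb2 took log2 fold changes of -0.076 to 0.18 in N, -0.27 to 0.040 in F and -0.12 to 0.036 over both stages. The causes of these changes were not tested. With 1 probe set per gene, averaging probe sets gave no other value. Background correction and scan batches could not be varied in summarised values.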
